A study of Homo sapiens with 8 samples.

Results

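Aldo-keto reductases are enzymes that use NADPH to reduce aldehydes and ketones to alcohols. The 7 genes described here, AKR1A1, AKR1B1, AKR1B10, AKR1C1, AKR1C2, AKR1C3 and AKR1C4, were taken by name from the 20565 annotated genes of the deposited tables, and they hold 603 of the 506946 transcript models listed there. Native RNA of 3 human cell lines was read directly through nanopores, with no treatment named in the labels, and each sequenced RNA was assigned to a transcript model by TALON. The groups were GM12878 (3 libraries, labelled a lymphoblastoid line, derived from B cells), HepG2 (3 libraries, labelled hepatocellular carcinoma) and K562 (2 libraries, also labelled lymphoblastoid, and known as an erythroleukaemia line). Each line is 1 cell line, and whether its libraries are separate cultures is not in the labels, so p-values speak only of the spread among the libraries, part or all of which can be technical.

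The family is known for detoxifying reactive carbonyls and for moving steroids between active and inactive forms. AKR1A1 reduces glucuronate and many aldehydes in most tissues, and AKR1B1, aldose reductase, turns glucose into sorbitol as the first step of the polyol pathway. AKR1B10 is a relative of AKR1B1 that reduces retinaldehyde, while the AKR1C enzymes act as ketosteroid reductases: AKR1C1 inactivates progesterone, AKR1C2 inactivates dihydrotestosterone, AKR1C3 makes testosterone and prostaglandin F, and AKR1C4 is known as a liver enzyme of bile acid synthesis. AKR1B10 and the AKR1C genes are also known targets of NRF2, the transcription factor of the antioxidant response.

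The genes lie in 3 places on GRCh38 (GENCODE release 29). AKR1A1 (ENSG00000117448.13) is at chr1:45550543-45570049 on the plus strand. AKR1B1 (ENSG00000085662.13) is at chr7:134442350-134459284 on the minus strand and AKR1B10 (ENSG00000198074.9) at chr7:134527592-134541408 on the plus strand, a span of 99.1 kb. The AKR1C genes sit within 256 kb of chromosome 10: AKR1C1 (ENSG00000187134.13) at chr10:4963253-4983283, AKR1C2 (ENSG00000151632.17) at chr10:4987400-5018031, AKR1C3 (ENSG00000196139.13) at chr10:5035354-5107686 and AKR1C4 (ENSG00000198610.10) at chr10:5195462-5218949. AKR1C2 is on the minus strand and the others are on the plus strand. AKR1C members have 4 annotated overlaps with other genes, 3 of them on the opposite strand. The overlapping genes had 0 assigned reads in the 8 libraries and were not analysed further.

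The AKR1C genes are near copies of one another, which bears on how far a read can be told to belong to 1 of them. The coding sequences of AKR1C1 and AKR1C2 differed at 19 of 972 bases, an identity of 98.0%, and shared an identical run of 189 bases. AKR1C3 was 91.5% and AKR1C4 88.5% identical to AKR1C1, whereas AKR1B1 and AKR1B10 were 76.8% identical to each other. Of the 19 differences between AKR1C1 and AKR1C2, 10 lay in exon 2, and the stretch of 60 coding bases with the most of them is shown because it is where the pair differs most. It covers coding bases 103 to 162 (exon 2 of AKR1C1-202, AKR1C2-201 and AKR1C3-201, exon 4 of AKR1C4-202), at chr10:4965932-4965991 (plus) for AKR1C1, chr10:5001604-5001663 (minus) for AKR1C2, chr10:5096428-5096487 (plus) for AKR1C3 and chr10:5200199-5200258 (plus) for AKR1C4. Capitals mark, in AKR1C1, the 10 bases that differ from AKR1C2, and in the others the bases that differ from AKR1C1 (10 in AKR1C2, 7 in AKR1C3 and 5 in AKR1C4).
AKR1C1: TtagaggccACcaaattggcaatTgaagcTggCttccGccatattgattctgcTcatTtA
AKR1C2: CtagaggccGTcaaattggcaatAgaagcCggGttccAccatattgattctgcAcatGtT
AKR1C3: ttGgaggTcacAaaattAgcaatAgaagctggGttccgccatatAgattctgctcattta
AKR1C4: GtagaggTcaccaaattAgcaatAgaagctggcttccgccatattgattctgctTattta

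Direct RNA sequencing starts at the 3′ end, so a read that stops early covers only the last exons. From exon 7 to the last exon the coding sequences of AKR1C1 and AKR1C2 differed at 1 base, and in exons 8 and 9 at 0 bases. In the first 200 bases after the stop codon they differed by 7 substitutions and 2 gap positions. Reads of the last exons alone thus hold few bases that tell the pair apart, and the split between AKR1C1 and AKR1C2 is given below both for all models and for models of at least 9 exons.

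**Figure D1:**
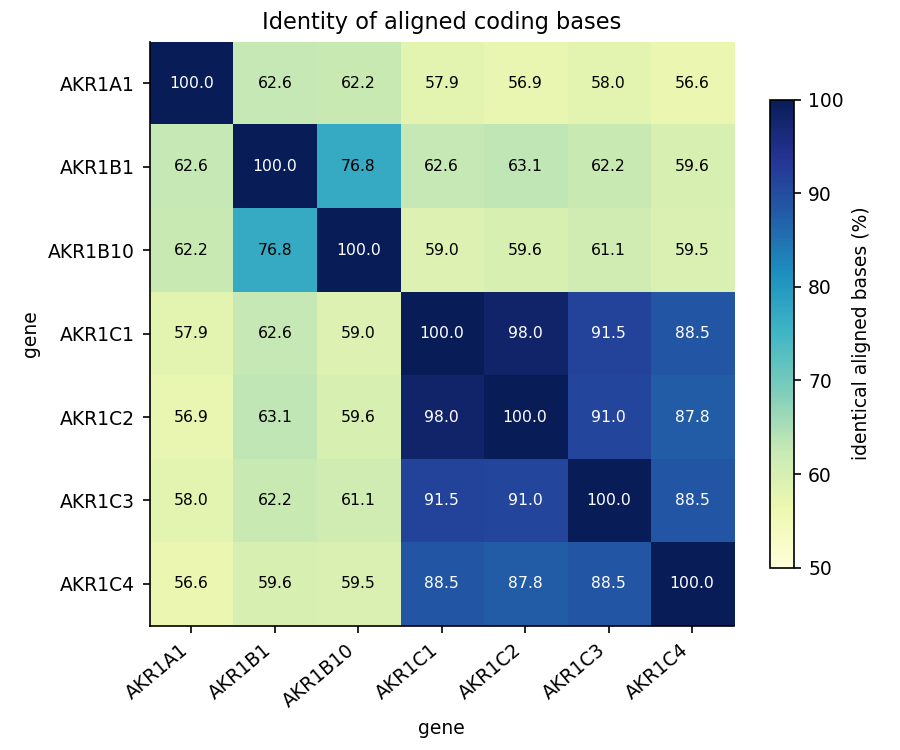
Identity of the coding sequences of the 7 genes, as the percent of aligned bases that are the same in each pair of genes (both axes list the genes, and darker cells are more alike). The AKR1C genes form a block of 87.8% to 98.0%, AKR1B1 and AKR1B10 are 76.8% identical, and all other pairs lie between 56.6% and 63.1%.

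The promoter windows of RefSeq (GRCh38.p14, 250 bases before to 50 after a gene start) were matched for 6 of the 7 genes; AKR1B10 has no entry. The AKR1C1 and AKR1C2 windows differed at 4 of 292 aligned bases (98.6% identity), while AKR1C1 shared 78.0% and 79.9% of aligned bases with the windows of 2 AKR1C3 starts and 71.2% with that of AKR1C4. A CCAAT box (searched as CCAAT on both strands) stood on the reverse strand of the AKR1C1, AKR1C2 and both AKR1C3 windows, 77, 81, 73 and 86 bases before the start, and its surroundings are shown with the match in capitals. The sites lie at chr10:4963328-4963352 (plus), chr10:5003924-5003948 (minus), chr10:5048698-5048722 (plus) and chr10:5094318-5094342 (plus). Those of AKR1C1, AKR1C2 and the downstream AKR1C3 start lie inside the first exon of the GENCODE transcripts AKR1C1-202, AKR1C2-201 and AKR1C3-201, whose annotated starts are farther upstream.
AKR1C1: ctcacatgccATTGGttaaccagca
AKR1C2: ctcacatgccATTGGttaaccagca
AKR1C3, upstream start: tttacatgctATTGGttaaccatta
AKR1C3, downstream start: cctacatgccATTGGttaaccatca

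The CCAAT box was also present in both AKR1B1 windows and absent from those of AKR1C4 and AKR1A1, and 34.6% of all 35116 windows of this length hold it. A TATA box (TATAAA, either strand) was matched in the upstream AKR1C3 window and in AKR1C4, against 11.5% of all windows. The antioxidant response element core (TGACNNNGC, 13.3% of windows), the AP-1 site (TGANTCA, 7.71%), the HNF1 half-site (GTTAAT, 6.88%) and the HNF4 core (CAAAGTCCA, 0.384%), each searched on both strands, had 0 matches in the windows of these genes. No match says only that these letters are not in these windows.

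Libraries held 70374 to 176118 reads in GM12878, 248490 to 461497 in HepG2, and 142837 and 313454 in K562. The labelled cell types were checked against marker genes: ALB, AFP and APOA1 had 0 reads outside HepG2, and CD79A stood at 404 CPM in GM12878. K562 had 0 reads of CD79A, CD79B and MS4A1, and it alone had reads of the fetal globin genes HBG1 and HBG2, so its lymphoblastoid label is not borne out by these markers. The K562 libraries differed from each other more than libraries of the other lines (chi-square per degree of freedom 3.53, against 1.23 to 2.22). Each result that rests on K562 is from 2 libraries.

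All 7 genes together took 0.849%, 0.916% and 0.991% of the reads of the 3 HepG2 libraries. Their share was 0.0596% to 0.0639% in GM12878, and 0.0308% and 0.0721% in the K562 libraries. In HepG2 AKR1C1 alone held most of these reads and ranked 12 among all genes by mean level. Of the 7 genes, 6 passed the filter on low counts and AKR1C4 did not. Levels are library-scaled counts (CPM) over the 4778 tested genes, and because each direct RNA read is 1 molecule they were not divided by length. Fold changes come from edgeR's quasi-likelihood test over all 8 libraries with Benjamini-Hochberg adjustment over the tested genes and an approximate standard error (SE), and a call needed both an adjusted p under 0.05 and a log2 change of 1 or more. Where a line had 0 reads of a gene, its level was taken as the worth of 3 counts across its libraries, here called the floor. The floor was 7.63 CPM in GM12878, 3.76 in HepG2 and 6.76 in K562. The fold is then a lower bound as to the line with 0 reads only. It takes no account of counting error in the other line.

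**Figure D2:**
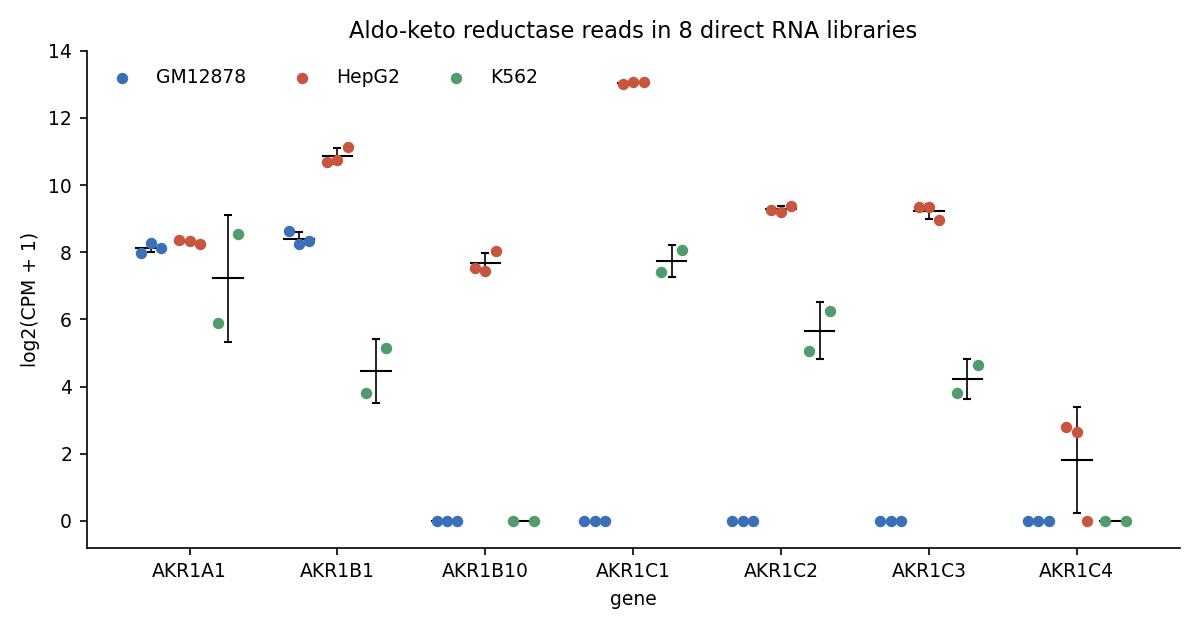
Level of each gene in each library, as log2(CPM + 1) on the vertical axis, with the genes on the horizontal axis and 1 point per library (blue GM12878, red HepG2, green K562). Black lines are means and bars are SD. AKR1A1 lies at a similar height in all 3 lines apart from 1 K562 library, and AKR1B10 and the AKR1C genes are at 0 in every GM12878 library.

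Between HepG2 and GM12878, 5 of the 6 tested genes were higher in HepG2, where 28.0% of all tested genes were called higher, and 0 were higher in GM12878, where 21.1% were. Between K562 and GM12878, 3 were higher in K562 (13.9% of tested genes) and 1 was higher in GM12878 (14.8%). Between K562 and HepG2, 0 were higher in K562 (17.4%) and 5 were higher in HepG2 (26.7%). AKR1B10 and the AKR1C genes passed the filter only through the lines that express them, so their calls against a line with 0 reads are no independent support. AKR1C3 had 2 and 7 reads in the K562 libraries and AKR1C2 had 5 and 22, so HepG2 carried both past the filter. Their calls of K562 against HepG2 are thus no independent support either. The 3 comparisons share libraries, and in bulk RNA fewer cells with a transcript and less of it per cell cannot be told apart.

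AKR1C1, the progesterone-inactivating enzyme, was the most read member. It had 2757, 1622 and 2355 reads in the HepG2 libraries, 26 and 78 in K562, and 0 in each GM12878 library. These are 8164, 8570 and 8679 CPM in HepG2 (mean 8471 ± 271, SD, n = 3) and 169 and 269 CPM in K562 (mean 219 ± 71.0, SD, n = 2). The 3 lines did not overlap. HepG2 was at least 1110-fold higher than GM12878 (adjusted p = 6.77e-32, edgeR quasi-likelihood) and K562 at least 28.7-fold higher (adjusted p = 7.57e-14). K562 was 37.4-fold below HepG2, a log2 change of -5.23 (SE 0.25, adjusted p = 1.47e-24).

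AKR1C2, the near-identical neighbour that acts on dihydrotestosterone, followed the same order at a lower level. Its reads were 208, 111 and 180 in HepG2, 5 and 22 in K562 and 0 in GM12878. The level was 616, 586 and 663 CPM in HepG2 (622 ± 38.8, SD, n = 3) and 32.4 and 75.9 CPM in K562 (54.2 ± 30.7, SD, n = 2). All HepG2 libraries lay above both K562 libraries. The difference from GM12878 was at least 81.5-fold in HepG2 (adjusted p = 2.02e-18, edgeR) and at least 7.10-fold in K562 (adjusted p = 5.36e-06). K562 was 10.5-fold below HepG2 (log2 change -3.39, SE 0.33, adjusted p = 1.35e-12, edgeR), and the log2 change was -4.25 without K562 replicate 2 and -2.66 with known models only.

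AKR1C3, which makes testosterone and prostaglandin F, stood near AKR1C2 in HepG2, with 220, 122 and 135 reads. That is 651, 645 and 497 CPM (598 ± 87.0, SD, n = 3), a range that overlaps AKR1C2's. In K562 it had 2 and 7 reads, or 13.0 and 24.1 CPM, with lower 95% limits of counting error at 1.57 and 9.71 CPM. In GM12878 it had 0 reads, and the floor there is 7.63 CPM. HepG2 was at least 78.3-fold above GM12878 (adjusted p = 2.48e-18, edgeR), and K562 was 28.9-fold below HepG2 (log2 change -4.85, SE 0.40, adjusted p = 3.33e-15), or by a log2 change of -5.47 without K562 replicate 2. The call of K562 over GM12878, at least 2.43-fold with an adjusted p of 0.0045 (edgeR), rests on 9 reads. It was lost without K562 replicate 2 (adjusted p = 0.0854) and when only known models were counted (adjusted p = 0.0842).

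AKR1C4, the bile acid enzyme, had 2, 1 and 0 reads in the HepG2 libraries and 0 in the other lines. Its mean of 3.74 CPM in HepG2 is at the floor, so no difference between lines was detectable at this depth. Among the AKR1C genes of HepG2 the order was thus AKR1C1 far above AKR1C2 and AKR1C3, which did not differ beyond their spread, and AKR1C4 last.

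AKR1B1, aldose reductase, was read in all 8 libraries. It had 59, 52 and 23 reads in GM12878, 558, 325 and 607 in HepG2, and 2 and 10 in K562. The levels were 393, 303 and 323 CPM in GM12878 (340 ± 47.6, SD, n = 3), 1652, 1717 and 2237 in HepG2 (1869 ± 320, SD, n = 3), and 13.0 and 34.5 in K562 (23.7 ± 15.2, SD, n = 2). HepG2 was high, K562 low and GM12878 between them, with no overlap. HepG2 exceeded GM12878 5.48-fold (log2 change 2.45, SE 0.22, adjusted p = 1.86e-14, edgeR). K562 lay 12.6-fold below GM12878 (log2 change -3.65, SE 0.37, adjusted p = 7.94e-12) and 68.8-fold below HepG2 (log2 change -6.10, SE 0.34, adjusted p = 4.11e-22). Without K562 replicate 2, which leaves 2 K562 reads, these log2 changes were -4.62 and -7.12, and that between HepG2 and GM12878 was 1.80 with known models only. It was the one tested member called lower in K562 than in GM12878.

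AKR1B10, the retinaldehyde-reducing relative, was read in HepG2 and in neither other line. It had 62, 33 and 71 reads there, or 184, 174 and 262 CPM (207 ± 48.0, SD, n = 3). The bounds were at least 27.1-fold over GM12878 (adjusted p = 1.68e-11, edgeR) and at least 30.6-fold over K562 (adjusted p = 2.05e-11).

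AKR1A1, the broadly expressed aldehyde reductase, did not pass the test in any comparison. It had 38, 53 and 20 reads in GM12878, 112, 61 and 82 in HepG2, and 9 and 109 in K562. The levels were 253, 308 and 281 CPM in GM12878 (281 ± 27.5, SD, n = 3) and 332, 322 and 302 in HepG2 (319 ± 15.1, SD, n = 3), which overlap. The K562 libraries stood apart from each other, at 58.4 and 376 CPM (217 ± 225, SD, n = 2). The log2 change was 0.18 between HepG2 and GM12878 (95% interval -0.61 to 0.97, adjusted p = 0.735, edgeR), -0.25 between K562 and GM12878 (-1.15 to 0.65, adjusted p = 0.746) and -0.43 between K562 and HepG2 (-1.27 to 0.41, adjusted p = 0.438). Without K562 replicate 1 the changes of K562 against GM12878 and HepG2 were 0.47 and 0.30, and without K562 replicate 2 they were -2.23 and -2.46 and passed the threshold, so 1 library decides the K562 level of this gene. In the first comparison the change was -0.15 when only known models were counted.

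The order of the members by mean level therefore differed by line. In GM12878 AKR1B1 and AKR1A1 ranked 441 and 557 among all genes by mean CPM, with ranges that overlap, and the other 5 members were at 0. In HepG2 the ranks were 12 for AKR1C1, 112 for AKR1B1, 277 for AKR1C2, 289 for AKR1C3, 602 for AKR1A1 and 951 for AKR1B10. In K562 AKR1C1 and AKR1A1, whose ranges overlap, ranked 723 and 736, and AKR1C2, AKR1B1 and AKR1C3 ranked 2808, 4920 and 5649.

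The genes whose levels were most like each member's were found by the Euclidean distance of log2(CPM + 1) over the 8 libraries, among all tested genes. For AKR1A1 they were ERP29, C12orf57 and QARS (distances 0.90, 1.15 and 1.32), and for AKR1B1 DBI, CD99 and PSME1 (3.38, 3.43 and 3.68). ODAM, HPX, which encodes the heme carrier hemopexin, and CFI, a complement protease, were closest to AKR1B10 (0.26, 0.32 and 0.45). For AKR1C1 the closest were APOE, SERPINF1 and KRT8 (2.88, 4.26 and 4.47), all more distant than those of AKR1C2, which were FGFR4, S100A1 and SPHK1 (0.49, 1.56 and 1.78). DLK1, EPHX1 and FN1 were closest to AKR1C3 (1.15, 1.24 and 1.36). Genes are not independent replicates, and these distances are a description.

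The balance of AKR1C1 and AKR1C2 was compared between the lines that read both. AKR1C2 made up 7.02%, 6.41% and 7.10% of the reads of the pair in HepG2 (6.84% ± 0.379, SD, n = 3). In K562 it made up 16.1% (5 of 31 reads, 95% Wilson interval 7.09% to 32.6%) and 22.0% (22 of 100, 15.0% to 31.1%), with a mean of 19.1% ± 4.15 (SD, n = 2). Both K562 libraries lay above all HepG2 libraries, by 12.2 percentage points in the mean. An exact two-sided permutation test gave p = 0.1, which is the smallest that 3 libraries against 2 allow. The split was also taken among models of at least 9 exons, as many as the most read known model of each gene has. The shares were then 6.65%, 5.60% and 6.91% in HepG2 (6.39% ± 0.696, SD, n = 3). In K562 they were 25.0% and 26.7% (25.8% ± 1.18, SD, n = 2), with an exact permutation p of 0.1, again the smallest possible. This cut leaves out another known AKR1C2 model, of 8 exons, which took 4 of the 22 AKR1C2 reads of K562 replicate 2. The intervals cover counting error only, and the K562 values of the longer models rest on 12 and 45 reads. With the test of AKR1A1 models below, 3 such exact tests were made, each with a Benjamini-Hochberg adjusted p of 0.114.

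**Figure D3:**
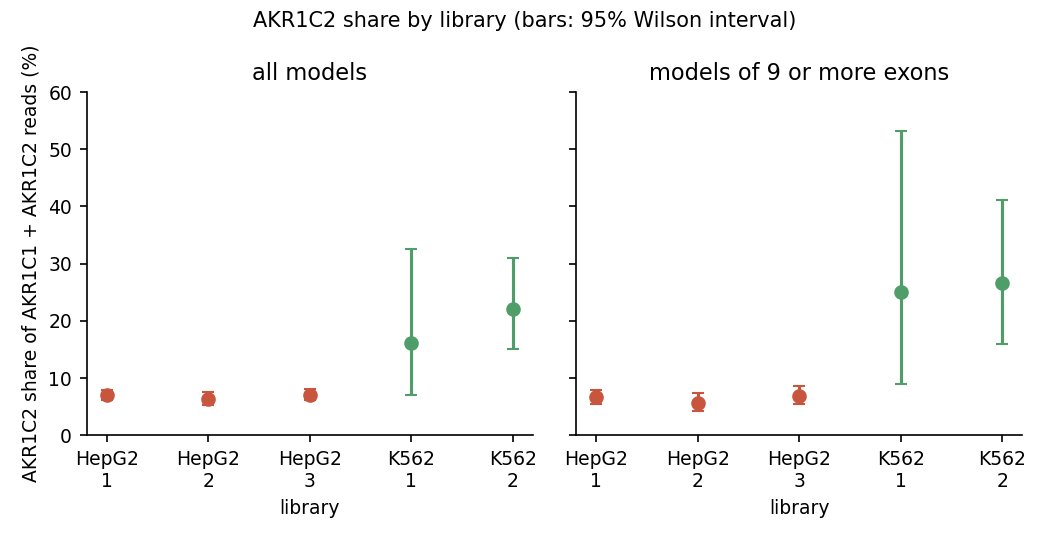
AKR1C2 as a percent of AKR1C1 plus AKR1C2 reads (vertical axis) in each HepG2 and K562 library (horizontal axis), for all models on the left and for models of 9 or more exons on the right. Points are libraries and bars are 95% Wilson intervals of counting error. The HepG2 points lie between 5.60% and 7.10% and the K562 points between 16.1% and 26.7%.

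Reads of each gene were spread over models of different class and exon number. TALON sorts a read into a known model, an incomplete splice match (part of a known model), a new combination of annotated splice sites, a model with an unannotated splice site, or a genomic model. For AKR1C1, 1 known model took reads, AKR1C1-202 with 9 exons, at 2766 of 6838 reads. The other models with reads numbered 224, of which 135 had 1 read, most in number among the 7 genes. AKR1C1 also had the most reads, and AKR1A1 had 98 models with reads from 484 reads, so these numbers are not at equal depth. The next most read models of AKR1C1 were 2 that lack 5′ exons, with 787 reads in one of 3 exons and 500 bases and 555 in one of 5 exons, then a new combination of 8 exons with 393 reads. Further models that lack 5′ exons had 374 reads (7 exons), 362 (6 exons), 334 (4 exons) and 293 (2 exons).

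In the HepG2 libraries the known model took 47.1%, 38.7% and 33.9% of AKR1C1 reads, and incomplete splice matches took 37.4%, 45.2% and 52.4%. The known share was 45.2%, 32.4% and 35.0% for AKR1C2, 53.2%, 44.3% and 45.2% for AKR1C3, 43.5%, 32.9% and 37.4% for AKR1B1, and 53.2%, 48.5% and 38.0% for AKR1B10. HepG2 replicate 1 was highest for these 5 genes but not for AKR1A1, at 31.3%, 36.1% and 29.3%. Over all annotated genes the known share was also highest in HepG2 replicate 1, at 41.6% against 37.9% and 38.9%.

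**Figure D4:**
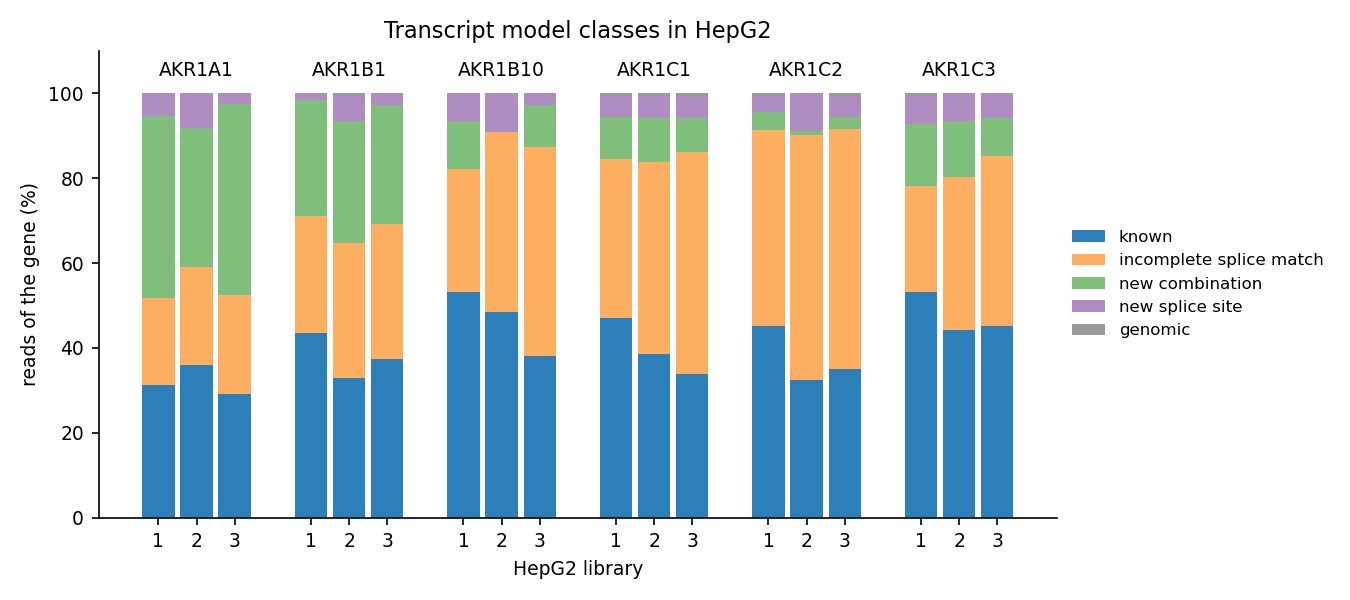
Share of each gene's HepG2 reads by model class (vertical axis, percent), for HepG2 libraries 1 to 3 within each gene (horizontal axis). Stacked colours are the 5 classes. Incomplete splice matches are the largest class of AKR1C2 in each library, of AKR1C1 in libraries 2 and 3, and of AKR1B10 in library 3. AKR1A1 has the largest share of new combinations.

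Models of 9 exons took 46.5% ± 7.0 (SD, n = 3) of AKR1C1 reads in HepG2, and models of 3 exons 12.9% ± 3.8. AKR1C2 had 42.9% ± 7.0 at 9 exons, 12.8% ± 4.8 at 3 and 11.8% ± 5.7 at 7. AKR1C3 had 50.4% ± 4.4 at 9 exons, 10.5% ± 2.8 at 8 and 9.2% ± 5.2 at 3. The 9-exon models thus led in all 3 genes, and in AKR1C2 and AKR1C3 the other shares named here differed by less than their SD. For AKR1B1, which has 10 exons in its known model AKR1B1-201, the share in models of 10 exons was 41.5% ± 3.3 (SD, n = 3) in HepG2 and 70.2% ± 8.3 (SD, n = 3) in GM12878.

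**Figure D5:**
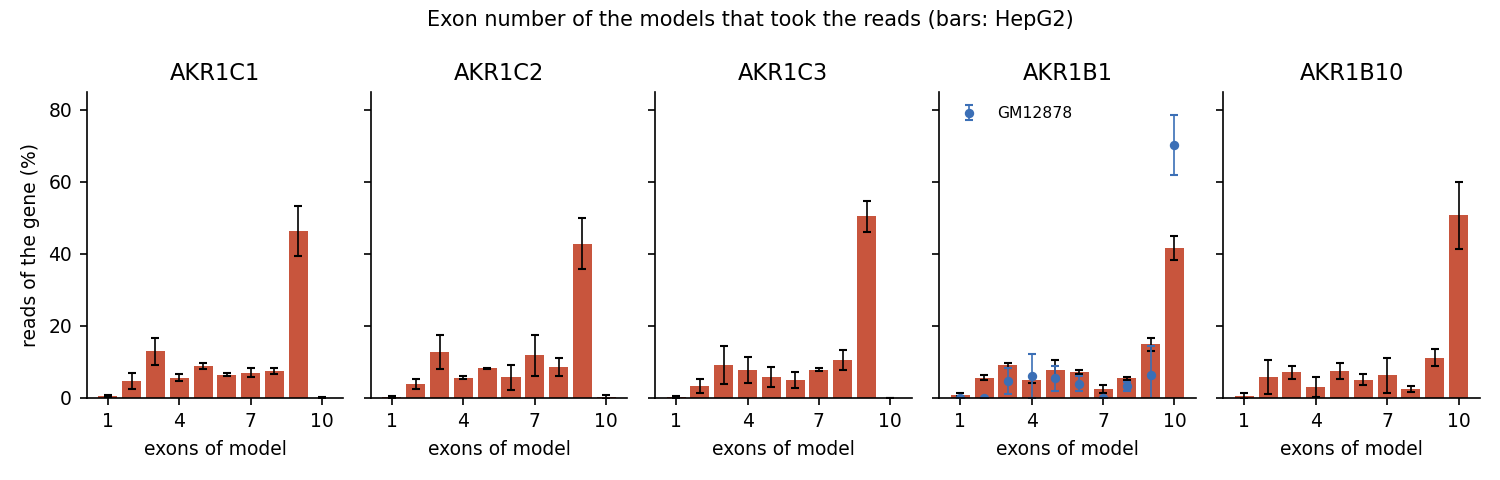
Share of reads (vertical axis, percent of the gene's reads) by the number of exons of the model they were assigned to (horizontal axis), for 5 genes in HepG2. Bars are means over 3 libraries with SD, and the blue points of the AKR1B1 panel are GM12878 means with SD. Each gene peaks at its full exon number, and the AKR1B1 peak at 10 exons is at 41.5% in HepG2 and 70.2% in GM12878.

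The known share of AKR1B1 reads was 65.9% ± 4.5 in GM12878 and 38.0% ± 5.3 in HepG2 (SD, n = 3 each), and the libraries did not overlap. Incomplete splice matches of AKR1B1 took 13.4% in GM12878 and 30.4% in HepG2. Over all annotated genes incomplete splice matches took at most 18.4% of reads in GM12878 and 24.9% to 27.2% in HepG2, and the part of that library-wide difference in the AKR1B1 values was not tested. K562 had 12 AKR1B1 reads, too few for a share.

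Among models of 8 exons, AKR1C1 and AKR1C3 had a longer one, with no read of such a model for AKR1C2 in HepG2. The AKR1C1 model is a new combination of 1519 bases with 393 reads over the libraries, and the AKR1C3 one has 1330 bases and 45 reads. Models of 8 exons and at least 1200 bases, a limit chosen after the values were seen, took 6.75%, 7.09% and 5.82% of AKR1C1 reads in HepG2 (6.55% ± 0.658, SD, n = 3). They took 11.8%, 11.5% and 7.41% of AKR1C3 reads in HepG2 (10.2% ± 2.45, SD, n = 3). In the K562 libraries they took 2 of 26 and 9 of 78 AKR1C1 reads, and 1 of 2 and 1 of 7 AKR1C3 reads. For AKR1C2 they took 0 of 499 HepG2 reads, which allows a share of up to 0.601%, and 0 of 5 and 4 of 22 reads in the K562 libraries. Those 4 reads were of 1 model, and it is a known model, unlike the new combinations of AKR1C1 and AKR1C3. In that library new combinations took 1 AKR1C2 read, and known models took 15, of which AKR1C2-201 took 11. The shortest annotated introns of the 3 main transcripts lie between exons 6 and 7 (273 bases in AKR1C1-202, 271 in AKR1C2-201 and 274 in AKR1C3-201) and between exons 4 and 5 (435, 452 and 447 bases). The tables do not give the exon boundaries of new models, so which exons these models join was not analysed here.

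In HepG2 AKR1A1 differed from the other members in its model classes. New combinations of annotated splice sites took 40.3% ± 6.6 (SD, n = 3) of its HepG2 reads, against 28.1% of AKR1B1, 9.4% of AKR1C1 and 2.7% of AKR1C2 reads. The most read new combination had 4 exons, 388 bases and 40 reads. It took 10.7% of AKR1A1 reads in HepG2, from 10, 6 and 11 reads. In GM12878 it took 3.80%, from 1, 2 and 1 reads, and in K562 9.23%, from 1 and 8 reads. The known models AKR1A1-201 and AKR1A1-202 had 98 and 43 reads, and the next most read known models had 14 and 12. Known models took 47.4%, 43.4% and 45.0% of reads in GM12878, 31.3%, 36.1% and 29.3% in HepG2, and 22.2% (2 of 9 reads) and 38.5% (42 of 109) in K562. GM12878 was high and HepG2 low with no overlap, and K562 spanned a wider range than HepG2. Over all annotated genes the known share was 44.8% to 46.1% in GM12878 and 37.9% to 41.6% in HepG2, also with no overlap. It was 47.7% and 47.8% in the K562 libraries. The part of that library-wide difference in the AKR1A1 values was not tested. The largest difference between line means of the AKR1A1 known share was 14.9 percentage points. An exact permutation test over 560 assignments gave p = 0.114, where the smallest possible p is 0.00357. Without K562 replicate 2, which leaves K562 with the library of 9 reads, it was 23.0 points with an exact permutation p of 0.0143, in which K562 is 1 library with no spread of its own.

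AKR1A1 was also the one member with enough known-model reads for a test of transcript usage (edgeR diffSpliceDGE, Simes p per gene). Its largest shifts were 8.90 percentage points between HepG2 and GM12878 (adjusted p = 0.9997, unadjusted 0.627), 18.3 between K562 and GM12878 (adjusted p = 0.915, unadjusted 0.0723) and 15.2 between K562 and HepG2 (adjusted p = 0.473, unadjusted 0.0462), so it was called in 0 of 3 comparisons. Of the genes tested for usage, 1.89%, 0.571% and 1.15% were called in these comparisons.

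Other genes of the superfamily and of the routes these enzymes belong to were listed for comparison, with counts by direction and the median log2 change (a gene with 0 reads in a line set at the floor) beside that of all tested genes. Percentages in these paragraphs are the shares of all tested genes called in the same direction. List genes with 0 reads in a line passed the filter through the lines that read them, as did AKR1B10 and the AKR1C genes. Of 10 other aldo-keto reductase superfamily genes, 2 were tested. AKR7A2, an aldehyde reductase, was at 66.1 CPM in GM12878, 191 in HepG2 and 142 in K562. It was higher than in GM12878 by 1.50 on the log2 scale in HepG2 and by 1.15 in K562, the latter call being lost in DESeq2 (adjusted p = 0.0851), without GM12878 replicate 1 (log2 change 0.99) and without K562 replicate 2 (0.68). KCNAB2, a potassium channel subunit with an aldo-keto reductase fold, was lower than in GM12878 by log2 changes of -2.87 in HepG2 and -2.28 in K562.

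The polyol and glucuronate routes hold the partners of AKR1B1 and AKR1A1. Of 8 tested genes, 7 were higher in HepG2 than in GM12878 (all genes 28.0%) and 0 lower, with a median log2 change of 2.88 against 0.01 over all genes. The same number was higher in HepG2 than in K562 (all genes 26.7%, median of K562 minus HepG2 -2.72, all genes -0.04), and 1 was higher in K562 than in GM12878 (all genes 13.9%, median -0.02, all genes 0.00). CRYL1, a gulonate dehydrogenase, was at 211 ± 31.8 CPM in HepG2 and 1.94 ± 3.36 in GM12878, where it had 1 read. Its log2 change of 6.08 was 8.43 without GM12878 replicate 2. UGDH, which makes UDP-glucuronate, was at 192 CPM in HepG2, 12.8 in GM12878 and 1.72 in K562. DCXR, which reduces xylulose, was at 541, 102 and 213 CPM, and its call in K562 over GM12878 (log2 change 1.04) was lost with known models only and without GM12878 replicate 1 or K562 replicate 2.

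Of 17 tested other carbonyl and aldehyde enzymes, 10 were higher in HepG2 than in GM12878 and 0 lower (all genes 28.0% and 21.1%), with a median log2 change of 1.46 against 0.01 over all genes. K562 had 4 higher and 1 lower than GM12878 (all genes 13.9% and 14.8%, median 0.80 against 0.00), and 1 higher and 9 lower than HepG2 (all genes 17.4% and 26.7%, median -1.32 against -0.04). DHRS2, a short-chain reductase, reached 1759 ± 180 CPM in HepG2 against 4.44 ± 7.70 in GM12878 and 45.3 ± 9.06 in K562. The GM12878 value rests on 2 reads, and the log2 change of 8.27 was 11.5 without GM12878 replicate 1 and 7.47 without replicate 2. ALDH2, the mitochondrial acetaldehyde dehydrogenase, was at 245 CPM in HepG2 and, with 1 read, 2.22 in GM12878. Its log2 change of 6.29 was 8.68 without GM12878 replicate 1 and 5.55 without replicate 2. ALDH1A1 was read in HepG2 alone (229 ± 77.4 CPM), and ALDH1A2, which makes retinoic acid, reached 135 ± 1.21 CPM in K562, while HepG2 had 1 read of it and GM12878 0. ALDH3A2, which oxidises fatty aldehydes, was at least 3.93-fold lower in K562 than in GM12878 (adjusted p = 0.0026, edgeR), a call lost without K562 replicate 2 (adjusted p = 0.0552).

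In the steroid and bile acid list, 10 of 32 genes were tested, and 8 were higher and 1 lower in HepG2 than in GM12878 (all genes 28.0% and 21.1%), with a median log2 change of 3.89 against 0.01 over all genes. K562 had 3 higher and 0 lower than GM12878 (all genes 13.9% and 14.8%, median 0.00 in both), and 0 higher and 8 lower than HepG2 (all genes 17.4% and 26.7%, median -2.69 against -0.04). Of the 10, 5 had 0 reads in GM12878 and 4 had 0 in K562, so the filter on low counts shapes these counts and medians. SULT2A1, the steroid sulfotransferase, was at 262 ± 12.2 CPM in HepG2 and had 0 reads in both other lines. SULT1A1, a phenol sulfotransferase, was at 305 ± 13.1 CPM in HepG2 and 0 in GM12878. UGT2B4, a glucuronosyltransferase of bile acids, was at 121 ± 4.13 CPM in HepG2 and 0 elsewhere. HSD17B10, a mitochondrial dehydrogenase, was the one that was higher in GM12878 than in HepG2, at 397 ± 68.7 against 128 ± 25.3 CPM (log2 change -1.59, SE 0.26). HSD3B7, of bile acid synthesis, was at least 7.67-fold higher in K562 than in GM12878 (adjusted p = 1.22e-05, edgeR). HSD17B11 was also higher in K562 than in GM12878, by 2.20 on the log2 scale (adjusted p = 0.0330, edgeR), a call lost in DESeq2 and without GM12878 replicate 1 (1.62) or K562 replicate 2 (1.31), while without GM12878 replicate 2 it was 2.94.

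Of 19 tested genes of the NRF2 list, 9 were higher and 1 lower in HepG2 than in GM12878 (all genes 28.0% and 21.1%), with a median log2 change of 0.97 against 0.01 over all genes. K562 had 4 higher and 1 lower than GM12878 (all genes 13.9% and 14.8%, median 0.55 against 0.00), and 3 higher and 9 lower than HepG2 (all genes 17.4% and 26.7%, median -0.99 against -0.04). GPX2, a glutathione peroxidase, was at 2389 ± 259 CPM in HepG2 and had 0 reads in both other lines, at least 313-fold above GM12878. EPHX1, the microsomal epoxide hydrolase that was also among the closest genes to AKR1C3, was at 456 ± 10.7 CPM in HepG2, 0 in GM12878 and 11.9 in K562. FTL, the ferritin light chain, was the most abundant of the list, at 17059 CPM in HepG2, 2400 in GM12878 and 6031 in K562. HMOX1, heme oxygenase, went the other way, at 89.7 ± 13.2 CPM in GM12878, 39.3 ± 17.3 in HepG2 and 1.72 in K562. Its call in GM12878 over HepG2 (log2 change -1.18, adjusted p = 0.0173, edgeR) was lost in DESeq2 (adjusted p = 0.105), with no filter on low counts (0.0583), and without GM12878 replicate 2 (0.0996), HepG2 replicate 1 (0.108) or HepG2 replicate 2 (0.0773), while that over K562 was -5.01 (adjusted p = 2.98e-06, edgeR), from 1 K562 read, and -7.11 without K562 replicate 2.

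Some genes of the NRF2 list were called higher in K562. MAFG, a small Maf partner of NRF2, was at 80.3 ± 3.49 CPM there, 20.7 ± 21.1 in GM12878 and 30.7 ± 12.1 in HepG2, with calls that were lost without GM12878 replicate 2, and against HepG2 in DESeq2 and without HepG2 replicate 1 or K562 replicate 2. TXNRD1, thioredoxin reductase, was 1.47 higher than in HepG2 on the log2 scale (adjusted p = 0.0025, edgeR). NQO1 was named after its values were seen, because it is a widely used NRF2 target. It was at 957 ± 45.3 CPM in HepG2, 74.5 ± 46.7 in GM12878 and 49.0 ± 23.4 in K562. Other genes of the list had a lower mean in HepG2 than in GM12878. TXNRD1 was at 39.3 ± 16.6 CPM in HepG2 and 66.2 ± 22.5 in GM12878, and TXN at 669 ± 177 and 867 ± 107, neither of them called. In that comparison 9 tested genes of the list were called higher in HepG2, 1 lower, and 9 were not called.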

How the data were processed

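Per the labels, total RNA of each line was sequenced as native RNA by Oxford Nanopore, and the deposited tables are TALON abundance tables. The submitters' processing notes name minimap2 and hg38. The sources used here give no TALON version. The values are raw read counts per transcript model, deposited by the authors without normalization, and each model also has a deposited exon number and length, other values that describe the model and not its reads. How reads of near-identical genes were assigned is not stated in these sources.

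The 7 genes and the gene lists were chosen with earlier results of these data known. Model counts were added up per annotated gene, filtered with filterByExpr, TMM-normalised and tested with edgeR 4.0.16 in 1 fit over 8 libraries (R 4.3.3), and CPM use the tested genes. DESeq2 1.42.0 and the other alternatives are given at the end. Named genes are the 7 members, up to 2 called genes of largest change per list, direction and comparison with at least 20 CPM in the higher line, the most abundant tested gene of each list, and the 3 nearest genes of each tested member; some named by this rule are not reported here. Coding sequences came from GENCODE 29 and promoter windows from RefSeq. Library totals were 70374 to 461497 reads, and the intervals and floors reflect counting error alone.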

Additional observations from a re-analysis of the deposited data

How the results depend on the processing

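The counts of members called (5, 4 and 5 in HepG2 against GM12878, K562 against GM12878 and K562 against HepG2) were the same in DESeq2, with other size factors and with no filter. With known models only they were 5, 3 and 5. Summing the AKR1C genes as 1 feature gave 3, 2 and 3, since fewer features were tested. Leaving out each library gave 5 to 5, 4 to 4 and 5 to 6. An unchanged count does not mean the same genes. Without K562 replicate 2, AKR1C3 was no longer called in K562 against GM12878, while AKR1A1 passed the threshold. With the replicate number as a block the counts were 5, 4 and 5, and 0 members were called for usage (adjusted p = 0.835). Same-numbered libraries did not deviate together (correlations -0.0406 to 0.0303 over 7 pairs, against -0.0402 to 0.0406 over 14 pairs of different number). The deviations of the K562 libraries mirror each other, so their values are not separate. The check showed no pairing by number, but it cannot exclude a shared batch. Usage was called for 0 members in each alternative that gave a value. The largest AKR1A1 difference in known share was 29.8 points with incomplete matches included, and 13.1 to 23.0 points when 1 library was left out, the last without K562 replicate 2 (p = 0.0143, exact permutation).

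The log2 change of AKR1A1 turned to -0.15 (HepG2 against GM12878, known models only), 0.47 and 0.30 (K562 against GM12878 and HepG2, without K562 replicate 1, against -2.23 and -2.46 without K562 replicate 2), and that of AKR7A2 in K562 against HepG2 to 0.0049 without K562 replicate 1, against -0.86 without K562 replicate 2. Over 195 recomputed member values, 188 kept direction and call, 3 reversed, 2 gained and 2 lost a call. Over 446 values of list genes the numbers were 424, 1, 2 and 19. The cause was not tested. Depth limits AKR1C4 (3 reads) and AKR1C3 in K562 (9 reads).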

Other observations

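Among the superfamily genes too little read to be tested, AKR1D1, a steroid reductase of bile acid synthesis, had 15 reads in HepG2 (16.8 ± 13.7 CPM, SD, n = 3) and 0 in the other lines. AKR7L had 3 reads, all in HepG2, and AKR1E2 had 3 reads, all in K562, the count that was used as the floor.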
